A study of Mus musculus with 50 samples.

Results

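The genes described here are those whose symbol begins with Kcn, the prefix given to potassium channel genes, on the Agilent two-color whole mouse genome array. A probe was a member when its RefSeq accession, or the symbol in brackets in its description, gave such a symbol, and probes of one gene were averaged. This gave 78 genes with 99 probes, of 34496 genes with 41174 probes in all. The samples were hippocampi of 5 wild-type (WT) male C57/BL6j mice and of 5 male transgenic (TG) mice on the same background that over-express DCLK-short, a splice variant of doublecortin-like kinase 1 whose kinase is constitutively active. The age of the mice, the promoter of the transgene and the number of founder lines were not given in the sources used here. The hippocampi of each mouse were dissected whole and hybridized on 10 arrays, each with 1 WT and 1 TG mouse, so that every mouse was measured once in Cy3 and once in Cy5, each time against a different mouse. The study set out chiefly to compare how array platforms perform on related samples, and also asked which transcripts differ in the hippocampus when DCLK-short is in excess.

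Potassium channels let potassium ions leave or enter a cell along their gradient, and thereby set the resting potential, the shape of the action potential and the rate at which neurons fire. Voltage-gated channels (Kcna to Kcnd, Kcnh, Kcnq) open on depolarization, inward rectifiers (Kcnj) and leak channels (Kcnk) act near rest, and the Kcnma and Kcnn channels open when calcium rises. Cytoplasmic and membrane partners (Kcnab, Kcnip, Kcne, Kcnmb) and electrically silent subunits (Kcnf, Kcng, Kcns, Kcnv) bind the pore-forming subunits and change their gating and trafficking.

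Signals are pixel intensities of the scanner, and a difference is given as the log2 ratio of TG over WT after loess normalization within each array, as a mean of 10 arrays with the standard error (SE) of limma. A gene was called when its Benjamini-Hochberg adjusted p-value over all 34496 genes (FDR) was at or below 0.1. The median signal over all probes was 109 to 169 in Cy3 and 77.9 to 165 in Cy5, and 80.2% to 88.5% of probes were well above background on an array. The number of arrays limits the precision. All 8 listed markers of hippocampal neurons were well above background in every channel. Dclk1, from which DCLK-short is made, lay at -0.07 ± 0.03 on the log2 scale (limma FDR 0.273), and whether its probes read the transgene is not given in the sources used here.

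The direction as labelled is in doubt. For Kcnab3 the direction as labelled opposes the one the study gives. For Tmem254a, a gene outside the family with a large difference, the Agilent arrays and the one-color Applied Biosystems (ABI) arrays of hippocampi from both groups gave opposite directions. It was higher in TG on ABI (1.73 ± 0.16 SE, limma FDR 0.00453) and lower in TG on Agilent as labelled (-0.99 ± 0.05 SE, limma FDR 6.52e-06). If the files of the 5 arrays with WT in Cy3 and of the 5 with WT in Cy5 had been exchanged, every sign would turn. Sizes and calls of the fit to 10 arrays would not change, and directions are given as labelled. The 2 arrays of the mouse labelled TG4 (the mouse labelled WT5 if the arrays were exchanged) also stood apart for many members, and the called members are given with and without them.

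Of the 78 genes, 6 were called, 3 higher and 3 lower in TG. That is 7.69% of the members, beside 8.15% of all genes tested on the same arrays. Higher were Kcnab3, Kcnj10 and Kcnh1, and lower were Kcnip4, Kcnv1 and Kcnab1. All 6 differences were small, between 1.15 and 1.33 in fold. The share of members called higher was 3.85% against 4.04% of all genes, and the share called lower was 3.85% against 4.11%. These shares are near those of the array as a whole in either direction. Of the 61 members whose probes were all well above background on all 10 arrays, 5 were called (8.2%), beside 10.9% of the 24002 such genes on the array. In that subset 3 members were higher (4.92%, beside 5.55%) and 2 lower (3.28%, beside 5.38%). The median log2 ratio of the 78 genes was -0.0076, beside 0.0034 over all genes. Without the mouse labelled TG4, 4 members were called (5.13%), beside 4.74% of all genes, with Kcnab3 and Kcnip4 still among them. With 1 array or 1 mouse left out, between 312 (without WT4) and 3142 (without array WT6/TG1) of all genes were called. Where this count fell, calls were lost in many genes, so the lost calls given below are not particular to the gene. With median centring in place of loess, 1166 genes were called, 1061 of them higher in TG, where loess gave 1394 higher of 2812, and Kcnab3 was then the only member called.

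**Figure D1:**
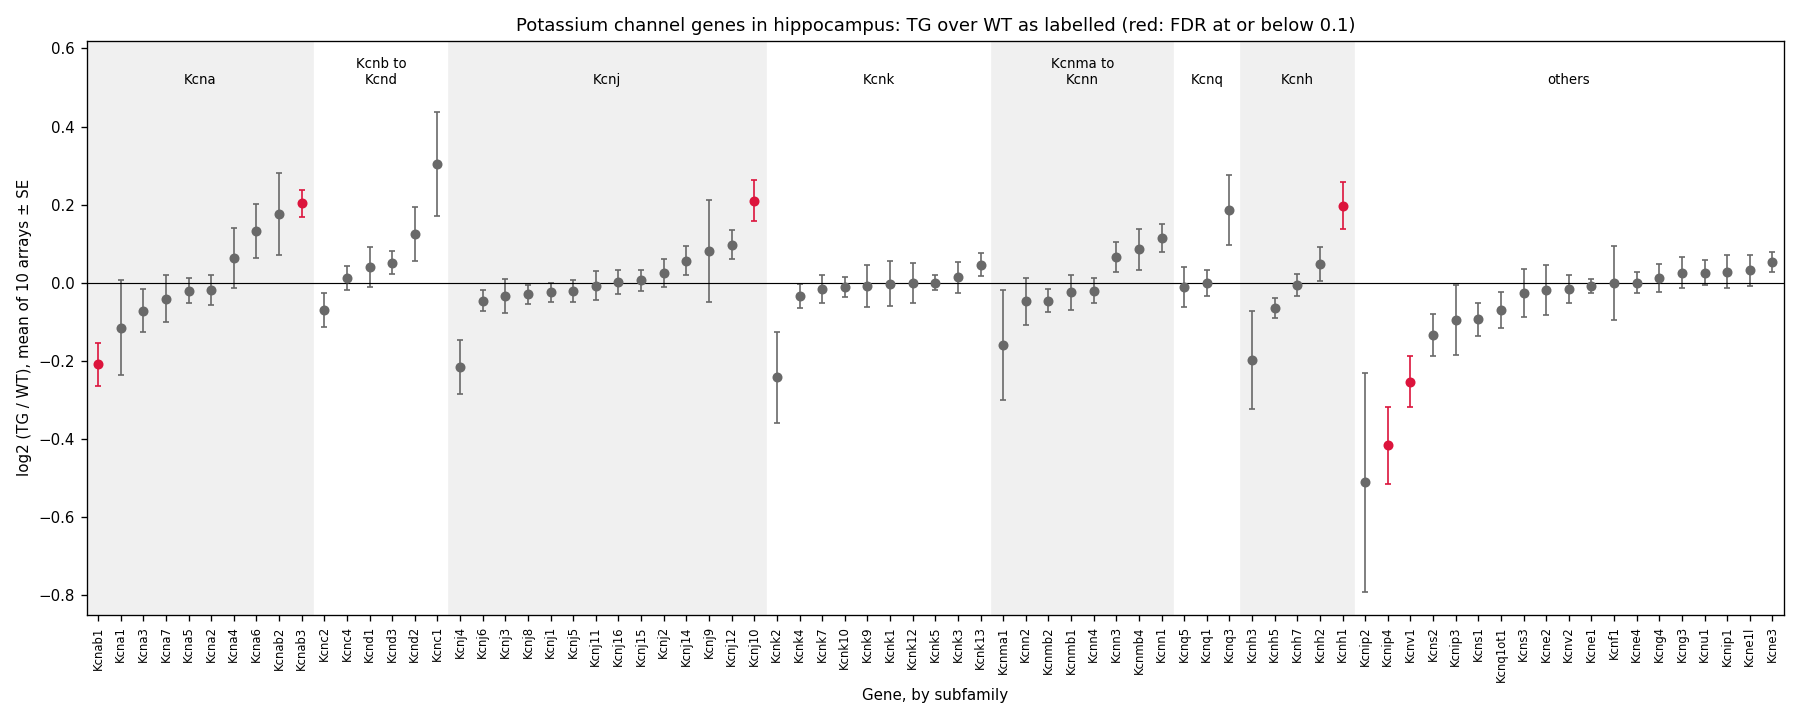
Log2 ratio of TG over WT as labelled for 75 of the 78 potassium channel genes, grouped by subfamily and ordered by size within it. Points are means of 10 arrays with the SE, and red marks the 6 genes with an FDR at or below 0.1. Most genes lie within 0.1 of 0, and Kcnip2, the lowest at -0.51, has an SE of 0.28 and was not called.

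The arrays compare 5 mice per group, each seen on 2 arrays, and the fit above takes the 10 arrays as separate. With 1 value per mouse (5 against 5), limma called no member at an FDR of 0.1, beside 0.0841% of all genes (29 genes). After the exchange of arrays, which joins the channels into other mice, it again called no member, beside 0.0319% (11 genes). An unadjusted p-value under 0.05 was found in the limma fit per mouse as labelled for 6 members (7.69%), beside 8.18% of all genes: Kcnab3, Kcnc1, Kcnh1, Kcnip4, Kcnj10 and Kcnv1. WT and TG mouse values did not overlap for 2 of 78 members, Kcnip4 and Kcnh1 (2.56%, beside 2.12% of all genes). Kcnab3 was the only member with the same sign on all 10 arrays, 1 of 78 (1.28%), beside 2.28% of all genes.

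Kcnab3 encodes a cytoplasmic beta subunit of the Kcna channels. Its log2 ratios on the 10 arrays were 0.19, 0.094, 0.24, 0.19 and 0.21 with WT in Cy3 (in the order WT1/TG4, WT3/TG5, WT4/TG2, WT5/TG3 and WT6/TG1, kept for the genes that follow). With WT in Cy5 they were 0.14, 0.081, 0.17, 0.46 and 0.27 (in the order WT5/TG1, WT1/TG2, WT4/TG3, WT3/TG4 and WT6/TG5). All 10 were above 0, and the array of WT3 against TG4 was the highest. The mean was 0.20 ± 0.03 (SE, limma FDR 0.0157), the smallest FDR among the members. Per mouse, the normalized log2 level was 7.53, 7.22, 7.36, 7.54 and 7.55 in WT1, WT3, WT4, WT5 and WT6, and 7.72, 7.59, 7.74, 7.63 and 7.52 in TG1 to TG5. WT3 and WT4 were the lowest, and TG5 lay within the WT range, so the groups overlapped. The call held without any single array or mouse, with an FDR between 0.016 and 0.0928, and without TG4 the mean was 0.17 (FDR 0.027).

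Kcnab1 encodes another beta subunit, which gives fast inactivation to Kcna channels. Its mean was -0.21 ± 0.05 (limma FDR 0.0596), and 9 of the 10 arrays were below 0, from -0.59 to 0.0083. Kcnab1 was the only called member not well above background throughout, since 1 of its 2 probes was so in 18 of 20 channels. With the other probe alone the mean was -0.19 (limma FDR 0.0642). Array WT3/TG4 was the lowest, and without the mouse TG4 the mean was -0.16 and the FDR 0.12. The call was also lost without array WT3/TG5, WT4/TG2, WT5/TG1 or WT4/TG3, and without the mouse WT3, WT4, WT5, TG1, TG3 or TG5. The WT mice had log2 levels of 8.62 to 8.90 and the TG mice 8.21 to 8.76, and these ranges overlapped. The third beta subunit, Kcnab2, was not called (0.18 ± 0.10, FDR 0.416), with TG4 at 11.6 and the other 9 mice between 10.7 and 11.1.

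None of the 7 Kcna pore subunits was called. Kcna6 had the highest ratio among them (0.13 ± 0.07, FDR 0.338) and Kcna1 the lowest (-0.12 ± 0.12, FDR 0.72). Kcna1, the axonal channel subunit that is mutated in episodic ataxia, had a log2 level of 8.25 in TG4 and of 9.02 to 9.55 in the other 9 mice. The median ratio of the Kcna group with its beta subunits was -0.020 over 10 genes.

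Kcnip4 is a calcium-binding protein that attaches to Kcnd channels, the source of the transient A-type current of dendrites. Its ratios were -0.88, -0.46, -0.39, -0.27 and -0.22 on the arrays with WT in Cy3, and -0.50, -0.35, -0.038, -1.10 and 0.041 on those with WT in Cy5. Both arrays of TG4 were the lowest, and WT6/TG5 was the only one above 0. The mean was -0.42 ± 0.10 (limma FDR 0.046). The log2 level was 8.77 to 8.98 in the WT mice and 7.89 to 8.70 in the TG mice, so every TG mouse was below every WT mouse. Without TG4 the mean was -0.27 and the FDR 0.0556. The call was lost without array WT5/TG1, and without any of the mice WT1, WT3, WT4, WT5, TG1 or TG2.

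The other Kcnip members were not called. Kcnip2, which binds the same channels in heart and brain, had the widest spread of all 78 genes, from -2.44 on WT1/TG4 and -2.25 on WT3/TG4 to 0.39 on WT6/TG1. Its log2 level was 6.05 in TG4, 7.38 in TG5, and 7.66 to 8.61 in the other 8 mice. The mean of -0.51 ± 0.28 (FDR 0.366) thus rested on 1 mouse, and over the 8 arrays without it the mean was -0.053 with an SD of 0.31. Kcnip3, also a transcriptional repressor, showed the same with smaller values: -0.76 and -0.58 on the arrays of TG4, and -0.12 to 0.12 on the other 8. Kcnip1 was at 0.028 ± 0.042.

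Kcnv1 encodes a silent subunit that joins other voltage-gated subunits and lowers their current. Its ratios were -0.56, -0.35, -0.19, -0.35 and -0.36 with WT in Cy3, and -0.27, 0.28, -0.19, -0.45 and -0.10 with WT in Cy5. Array WT1/TG2 was the only one above 0. The mean was -0.25 ± 0.07 (limma FDR 0.0568), and without TG4 it was -0.19 with an FDR of 0.161. The call was also lost without array WT3/TG5, WT4/TG2, WT5/TG1 or WT3/TG4, and without the mouse WT3, WT4, WT5, TG1, TG3 or TG5. The WT mice lay between 6.99 and 7.21 and the TG mice between 6.58 and 7.03, with TG2 alone inside the WT range.

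The other silent subunits were not called. Kcns2 had -0.13 ± 0.05 (FDR 0.193), Kcns1 -0.093 ± 0.042 (FDR 0.255), Kcns3 -0.027 ± 0.062 (FDR 0.9), Kcnf1 -0.0019 ± 0.095 (FDR 0.996), Kcng3 0.026 ± 0.039 (FDR 0.835) and Kcng4 0.013 ± 0.036 (FDR 0.924). Kcns3 was called without TG4, whose 2 arrays averaged 0.35 where the other 8 averaged -0.12. Kcnv2, a silent subunit of photoreceptors, was not well above background in any channel of any array, with signals of 38.2 to 78.1, so its ratio carries no measured level.

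Kcnj10 encodes the inward rectifier through which astrocytes take up potassium released by active neurons. Its ratios were 0.27, 0.0068, 0.39, 0.058 and 0.11 with WT in Cy3, and -0.049, 0.53, 0.24, 0.36 and 0.20 with WT in Cy5. Of these 10, 9 were above 0, and the 2 arrays of TG2 were the highest. The mean was 0.21 ± 0.05 (limma FDR 0.0536). The log2 level was 10.1 to 10.3 in the WT mice and 10.3 to 10.6 in the TG mice, and WT5 lay level with TG1 and above TG5, so the ranges overlapped. Without TG4 the mean was 0.18 and the FDR 0.151, and the call was also lost without array WT4/TG2, WT4/TG3 or WT3/TG4 and without the mouse WT1, WT3, WT4, TG2, TG3 or TG5. Of the 6 astrocyte markers, 2 were also called higher (4.04% of all genes were), Aldh1l1 (0.23 ± 0.05, limma FDR 0.0249) and Aqp4 (0.30 ± 0.08, limma FDR 0.0675). Without TG4 these had 0.19 (limma FDR 0.0589) and 0.40 (limma FDR 0.0355), and with 1 value per mouse neither was called (limma FDR 0.332 and 0.321). The astrocyte markers Gfap (-0.15 ± 0.05, limma FDR 0.128) and Gja1 (-0.079 ± 0.050, limma FDR 0.461) had values below 0 and were not called. The summed log2 level of these markers was 11.91 to 12.13 in WT and 11.96 to 12.36 in TG mice. In a whole tissue a change in the number of cells of a type and in the RNA per cell cannot be told apart, and the part of the astrocyte markers in the Kcnj10 difference was not tested.

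No other Kcnj gene was called. Kcnj4, a strong inward rectifier of forebrain neurons, lay just outside the limit (-0.22 ± 0.07, FDR 0.107; without TG4 -0.12, FDR 0.211) and Kcnj12 had 0.097 ± 0.037 (FDR 0.173). Kcnj16, which joins Kcnj10 in glia, was at 0.0011 ± 0.031 (FDR 0.993), with 3 probes between -0.056 and 0.050. The G-protein-gated channels Kcnj3, Kcnj5, Kcnj6 and Kcnj9, a family that carries slow inhibition in hippocampal neurons, had means of -0.034, -0.021, -0.046 and 0.081 and FDRs of 0.397 to 0.844. Kcnj9 varied most among them: its log2 level was 7.97 in TG2, 6.32 in TG4 and 6.80 to 7.30 in the other 8 mice. The 14 Kcnj genes had a median of -0.0031.

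Kcnh1 encodes a slowly activating voltage-gated channel of the ether-a-go-go family. Its ratios were 0.13, -0.035, 0.10, 0.018 and 0.48 with WT in Cy3, and 0.30, 0.49, 0.028, 0.43 and 0.031 with WT in Cy5. WT3/TG5 was the only array below 0, and 3 further arrays lay between 0.018 and 0.031. The mean was 0.20 ± 0.06 (limma FDR 0.0905). The WT mice had log2 levels of 7.08, 7.04, 7.13, 7.13 and 7.02, and the TG mice 7.38, 7.28, 7.18, 7.42 and 7.14, so the groups did not overlap, although WT5 and TG5 were nearly level. The call was lost in 8 of the 10 fits without 1 array (it held without WT5/TG3 or WT6/TG5) and in all 10 without 1 mouse (without TG4, 0.18 and FDR 0.205). Kcnh3, a member of the same family found mainly in forebrain, was not called (-0.20 ± 0.12, FDR 0.451), with 6.02 in TG4 and 6.99 to 7.33 in the other 9 mice. Kcnh2, Kcnh5 and Kcnh7 lay between -0.065 and 0.048 and were not called.

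**Figure D2:**
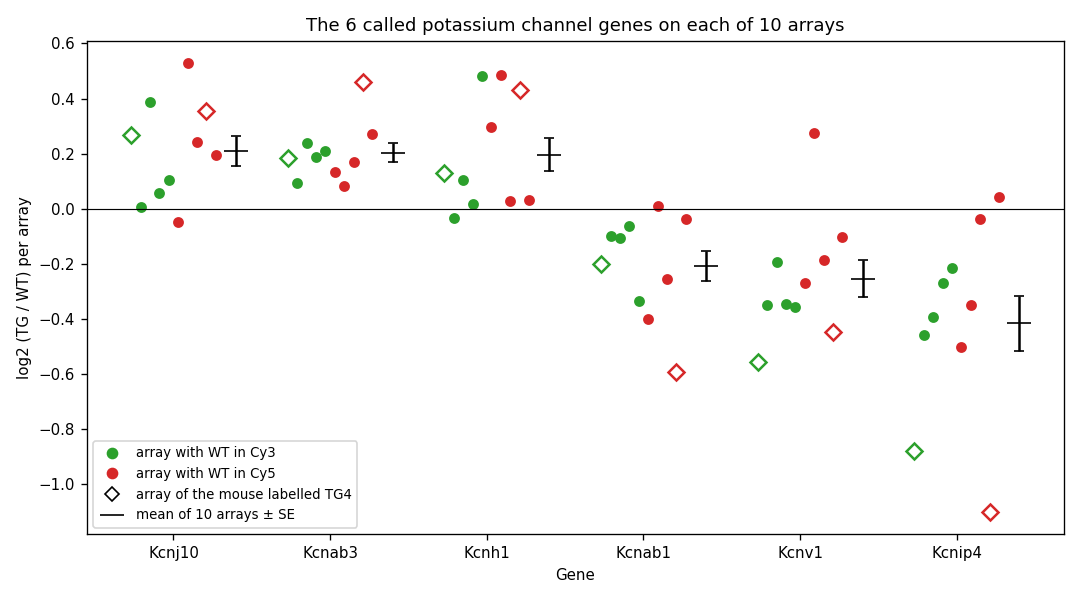
Log2 ratio of TG over WT on each of the 10 arrays for the 6 called genes, with the mean and SE beside them. Green marks arrays with WT in Cy3, red those with WT in Cy5, and open diamonds the 2 arrays of the mouse labelled TG4, which are the lowest for Kcnip4 (-0.88 and -1.10). Kcnab3 is above 0 on all 10 arrays.

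Among the Kcnb to Kcnd genes none of 8 was called, and 6 of them had a positive mean. Kcnc1, a channel of fast-spiking interneurons, had the highest ratio of all 78 genes (0.30 ± 0.13, FDR 0.24). It ranged from -0.35 on WT3/TG5 to 0.92 on WT5/TG1, and its log2 level was 7.44 to 7.92 in WT and 7.89 to 8.25 in TG mice. Kcnc2 had -0.071 ± 0.044 and Kcnc4 0.012 ± 0.030. Kcnd2, the main A-type channel of pyramidal cell dendrites, had 0.12 ± 0.07 (FDR 0.378), and Kcnd1 and Kcnd3 had 0.041 and 0.051.

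No leak channel (Kcnk, 10 genes), calcium-activated channel or subunit (Kcnma to Kcnn, 8 genes) or Kcnq gene (4 genes) was called. Their medians were -0.0050, -0.022 and -0.0064. Kcnk2, a leak channel gated by stretch and lipids, had the lowest mean of the leak channels (-0.24 ± 0.12, FDR 0.291), which was -0.062 without TG4. The other 9 leak channels lay between -0.033 and 0.046. Kcnma1, the large-conductance calcium-activated channel, was at -0.16 ± 0.14 (FDR 0.642), with 7.38 in TG4 and 8.12 to 8.59 in the other 9 mice. Kcnn1, a small-conductance calcium-activated channel, lay just outside the limit (0.11 ± 0.04, FDR 0.106), and Kcnn2 and Kcnn3 had -0.048 and 0.065. Kcnq3, a subunit of the M-current channel that damps repeated firing, had 0.19 ± 0.09 (FDR 0.297), with TG2 at 7.99 and the other 9 mice at 6.98 to 7.49.

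The remaining members were membrane partners of the Kcne group (Kcne1, Kcne1l, Kcne2, Kcne3 and Kcne4), the sperm channel Kcnu1 and the non-coding transcript Kcnq1ot1, which runs within the Kcnq1 locus and codes for no channel. Their means lay between -0.069 and 0.053, and none was called. Kcne2, also made by the choroid plexus, had log2 levels of 7.54 in WT5 and 7.35 in TG3, and of 6.56 to 6.94 in the other 8 mice.

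The values of the mouse labelled TG4 were often at an end of the range, in the family and in some other lists. Its 2 arrays were the 2 lowest of 10, or the 2 highest, for 28 of the 78 genes (35.9%), beside 14.8% of all genes. Among members well above background on all arrays this was 25 of 61 (41%), beside 18.7% of all such genes. No other mouse held both ends for more than 4 members, and over all genes the other 9 mice ranged from 1.13% to 4.36%. This share is a description made after the values were seen, and was not tested.

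**Figure D3:**
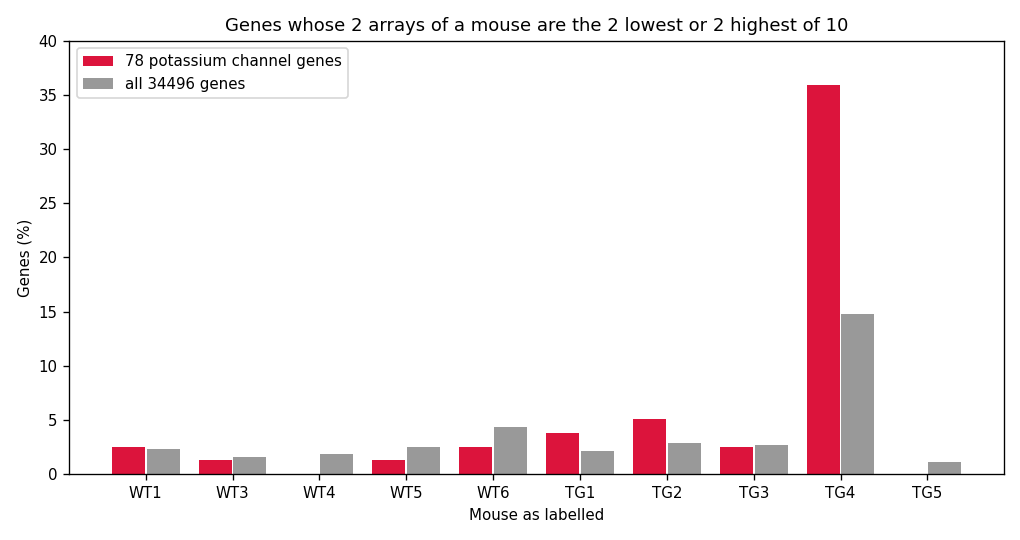
Share of genes for which the 2 arrays of a mouse were the 2 lowest or the 2 highest of the 10 arrays, for each mouse as labelled. Red bars are the 78 potassium channel genes and grey bars all 34496 genes. TG4 reaches 35.9% and 14.8%, and every other mouse is at or below 5.13%.

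In 20 of the 28 genes TG4 was at the low end and in 8 at the high end, beside 3180 genes at the low and 1910 at the high end over the whole array. Among the lowest means over its 2 arrays were those of Kcnip2 (-2.34), Kcnip4 (-0.99), Kcnk2 (-0.965), Kcnh3 (-0.945), Kcnma1 (-0.89), Kcna1 (-0.82), Kcnip3 (-0.67) and Kcnj4 (-0.61). For all of these except Kcnip4 the mean over the other 8 arrays was between -0.12 and 0.061, and for Kcnip4 it was -0.27. The highest means at the high end were those of Kcnab2 (0.695), Kcns3 (0.35) and Kcnk1 (0.30), for which the other 8 arrays averaged 0.046, -0.12 and -0.079. Kcnip1, unlike the other Kcnip genes, had TG4 at the high end (0.22, and -0.019 on the other 8 arrays). These genes were picked after their values were seen.

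On both arrays of TG4 the means of the oligodendrocyte and thalamus markers lay below those of the other 8 arrays. For no other marker list, microglia, choroid plexus and blood included, did both arrays lie outside the range of the other 8. The mean log2 ratio of the 6 oligodendrocyte markers was -0.84 and -0.76 on its 2 arrays, and -0.26 to 0.17 on the other 8, and 4 of the 6 had it at the low end. Mbp, the myelin basic protein, was called lower in TG (-0.51 ± 0.15, limma FDR 0.0843), and without TG4 it had -0.26 (limma FDR 0.0516). The hippocampal neuron markers averaged -0.012 and 0.11 on the 2 arrays and -0.091 to 0.093 on the other 8. Of the 6 astrocyte markers 2 had TG4 at the low end and 1 at the high end. The 5 thalamus markers measured averaged -0.205 and -0.138 on its arrays and -0.081 to 0.10 on the other 8, with 1 gene at the low end. Of the 6 markers of endothelium and pericytes 2 were at the low and 1 at the high end, and of the 6 interneuron markers 1 at each. The part of these markers in the values of the potassium channel genes was not tested.

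**Figure D4:**
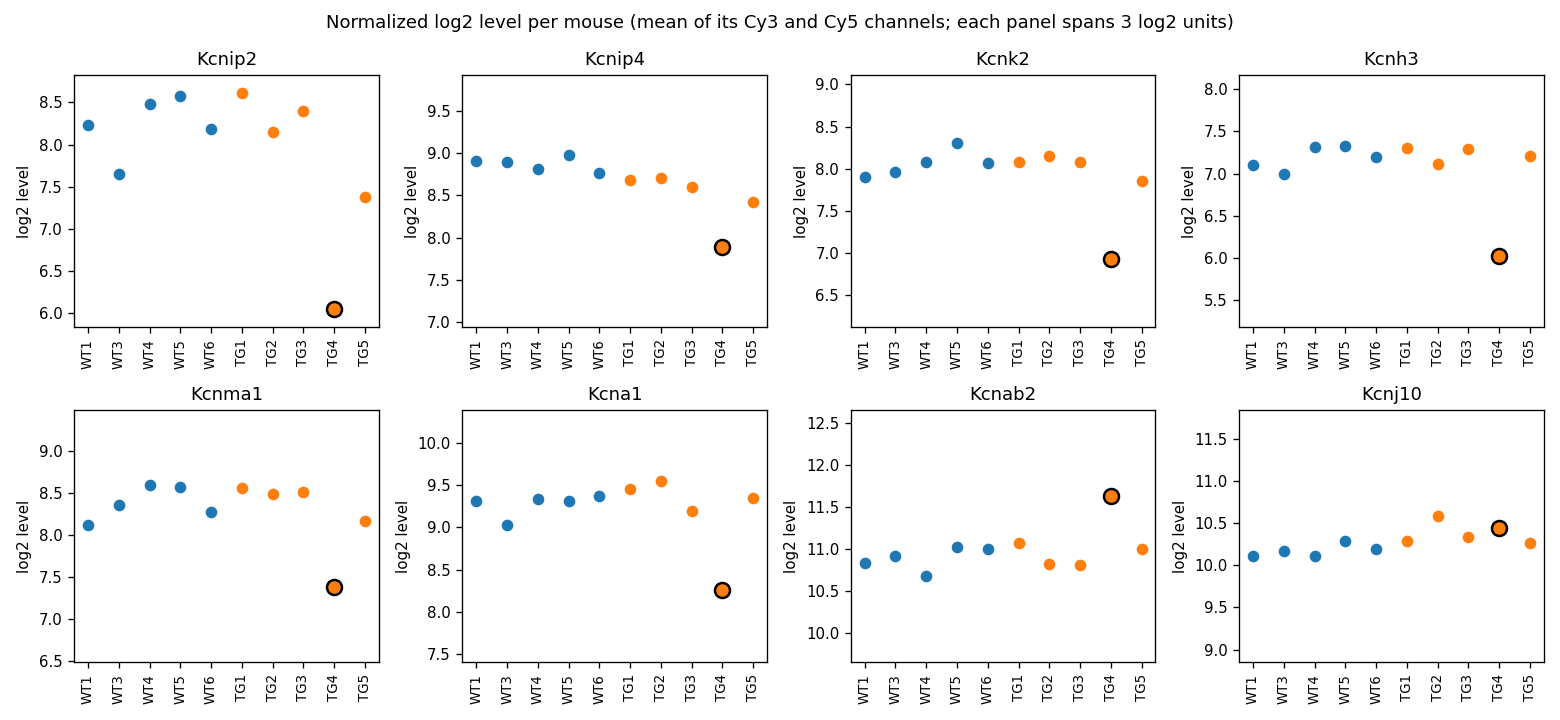
Normalized log2 level per mouse, averaged over its Cy3 and Cy5 channels, for 8 potassium channel genes, with WT in blue, TG in orange and TG4 outlined; each panel spans 3 log2 units. TG4 is the lowest of the 10 mice for Kcnip2 (6.05), Kcnip4, Kcnk2, Kcnh3, Kcnma1 and Kcna1 and the highest for Kcnab2 (11.6), and lies among the other TG mice for Kcnj10.

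Several probes were present for 19 of the 78 genes, which allows a check within the gene. Their probes had the same sign in 13 genes, and the median gap between the lowest and the highest probe of a gene was 0.11. At the level of probes, 8 of 99 were called (8.08%), beside 7.41% of all probes, and they came from 7 genes. Both probes of Kcnv1 were called (-0.24 ± 0.06, FDR 0.0479, chromosome 15 at 45055172 to 45055231; and -0.27 ± 0.08, FDR 0.0928, at 45054007 to 45054066). Coordinates are those of the deposited files, which name no genome build.

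In 3 genes a probe was far lower on both arrays of TG4 while another probe of the gene was not. For Kcnip4, the probe on chromosome 5 that spans 47154746 to 47159853 was at -1.70 and -1.94 on these arrays, and the one at 47153474 to 47153533 was at -0.061 and -0.26. The first had a mean of -0.61 ± 0.19 over 10 arrays (FDR 0.105) and was not called, and the second, with -0.22 ± 0.05 (FDR 0.0452), was. For Kcnj4, the probe at 79537419 to 79537478 of chromosome 15 was at -1.39 and -1.30, and the one at 79536440 to 79536498 at 0.018 and 0.22. For Kcns2, the probe at 34841542 to 34841601 of chromosome 15 was at -0.97 and -0.78, and the one at 34840244 to 34840303 at -0.027 and 0.011. The drop in TG4 was therefore not shared by all probes of these 3 genes, although every one of them was well above background in all 20 channels. For Kcnip3 both probes were low there (-0.65 and -0.33, and -0.87 and -0.83). Which transcripts of these genes each probe reads was not tested.

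For Kcnab1 the probes gave -0.19 ± 0.06 (FDR 0.0854) and -0.22 ± 0.07 (FDR 0.117), which differ by less than their SE. The first was well above background in all 20 channels and the second in 18.

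**Figure D5:**
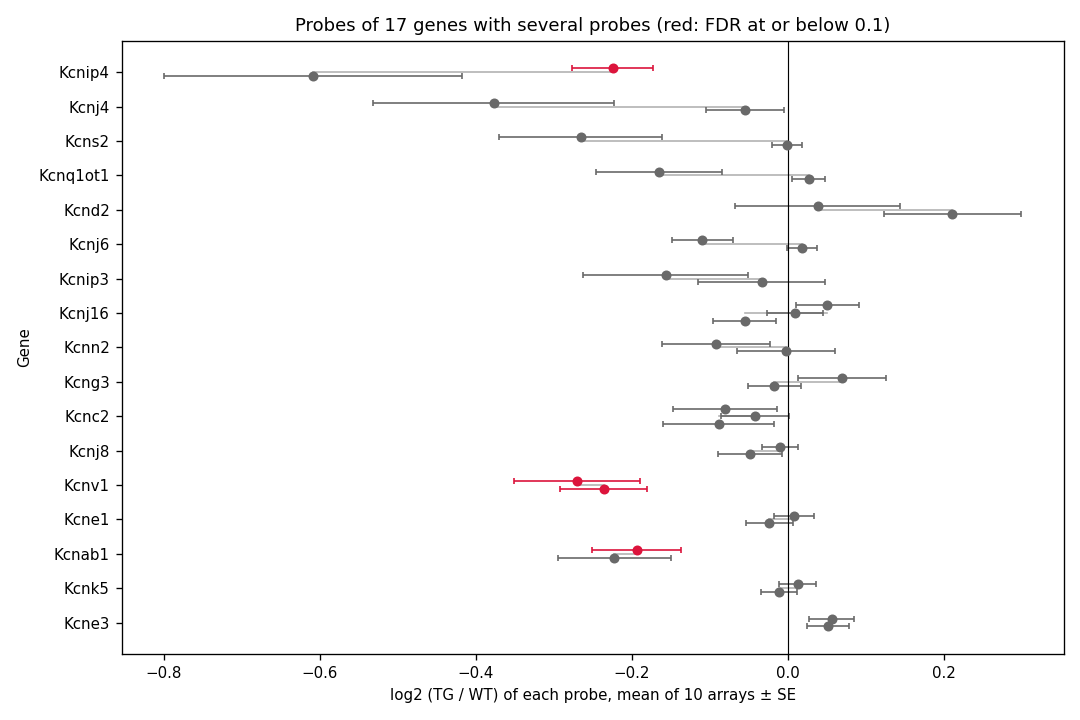
Log2 ratio of TG over WT of every probe of 17 of the 19 potassium channel genes with several probes, as the mean of 10 arrays with the SE, and red for an FDR at or below 0.1. The widest gap is that of Kcnip4 (0.38), followed by Kcnj4 (0.32) and Kcns2 (0.26).

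Proteins that bind or anchor potassium channels formed a second list, with 22 of its 25 genes on the array, 16 of them well above background in every channel. Of these, 1 was called higher and 3 lower (18.2%, beside 8.15% of all genes, 4.04% higher and 4.11% lower), and the median was -0.032. With 1 value per mouse none of the 4 was called (limma FDR 0.448 to 0.768). Lower were Lgi1, a secreted protein that slows Kcna1 inactivation (-0.32 ± 0.07, limma FDR 0.0409), Dlg1, a scaffold of synaptic channels (-0.33 ± 0.07, limma FDR 0.0394), and Vapa, a membrane protein of the endoplasmic reticulum at its contacts with the cell surface (-0.16 ± 0.04, limma FDR 0.0404). Higher was Cntn2, which clusters Kcna channels beside the node of myelinated axons (0.10 ± 0.03, limma FDR 0.0944). Unlike the 3 lower genes, Cntn2 was not well above background in every channel. Without TG4, Lgi1 had -0.21 (limma FDR 0.0481), Dlg1 -0.22 (limma FDR 0.031), Vapa -0.19 (limma FDR 0.0519) and Cntn2 0.083 (limma FDR 0.267), so that the call of Cntn2 was lost. Cntnap2, the partner of Cntn2 at the node, had 0.030 ± 0.027 (FDR 0.659). Of the 22 genes 8 had the arrays of TG4 as the 2 lowest and none as the 2 highest (36.4%, beside 14.8% of all genes), and the list averaged -0.33 and -0.28 on these arrays and -0.088 to 0.035 on the other 8.

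Only 527 of the 33012 ABI probes could be given a symbol by accession. Among these were probes of 2 of the members and of the channel regulator Kcnrg, which has no probe on Agilent. Other members may have ABI probes that were not matched. The study lists an ABI value for Kcnab3, whose probe was not matched here. On ABI each of 5 WT and 5 TG mice was measured on its own array. Of 33012 probes 3 were called (0.00909%), and none of the 3 probes matched to a Kcn symbol was among them. An unadjusted p-value under 0.05 was found in the limma fit for 1377 probes. Kcnh3 had log2 levels of 12.3, 12.4, 12.3, 11.7 and 12.4 in WT1 to WT5, and of 11.95, 11.8, 12.1, 12.3 and 13.1 in TG1 to TG5. No mouse stood as low there as TG4 did on Agilent, and the value of TG4 on ABI was 12.3. The study's methods describe the same mice for every platform, and the TG numbers are the same on both, but the WT numbers are only partly shared. The difference of TG minus WT for Kcnh3 was 0.026 ± 0.24 (limma FDR 0.999), for Kcne4 0.020 ± 0.19 (limma FDR 0.999) and for Kcnrg -0.24 ± 0.25 (limma FDR 0.999). With these SEs a difference of the size seen on Agilent was not detectable on ABI.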

How the data were processed

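For Agilent, RNA of each mouse was amplified and hybridized once in each color. The Agilent files are scanner output of Feature Extraction, deposited by the authors as pixel intensities per spot and channel, not normalized, with a log10 ratio per spot from the scanner software, which served as an alternative alone. The ABI values were deposited as raw probe signals on the intensity scale, before any normalization, and their medians differ between arrays. The Illumina table was not used, since its 80 columns carry chip positions in place of sample names.

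Mean pixel intensities were taken without background subtraction, as the study's methods state, normalized by loess within arrays (span 0.3, control spots at weight 0), averaged over spots, probes and genes, and turned to TG over WT. limma 3.58.1 in R 4.3.3 fitted 1 mean per gene over 10 arrays, with Benjamini-Hochberg adjustment over 34496 genes. Symbols came from RefSeq accessions for 95 probes and from the deposited files for 4. Mouse values are means of 2 single channels after loess and Aquantile. ABI signals were variance-stabilized by a routine written for this purpose, and limma compared 5 with 5 mice. The fit to 10 arrays, the fit with 1 value per mouse and the ABI fit were tried on simulated data. The alternative settings were not.

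Genes named were Kcnab3 and up to 4 called genes of each subfamily, or else its gene with the smallest p. Also named were genes with 1 sign on all arrays, with probes called in opposite directions or never well above background. Those with an ABI probe matched by accession were named too, and other genes were added after their values were seen. Values of 3 members, counted in all totals, are not reported here. The members and lists were chosen with earlier results of these data known. The dye-adjusted check did not settle whether mouse numbers pair the arrays: as labelled, the deviations of arrays sharing a WT mouse correlated at -0.46 to 0.44 and of those sharing a TG mouse at -0.22 to 0.75, with 3 and 1 of 5 pairs over 0.1. After an exchange of arrays they correlated at 0.29 to 0.75 (5 of 5 pairs over 0.1) and -0.19 to 0.45 (3 of 5). Each mouse gave 1 hippocampal sample on 2 arrays. Where arrays are taken as separate, p-values also count this repeat measurement.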

Additional observations from a re-analysis of the deposited data

Results flagged for a closer look

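Among the 12 genes named by the rule, 36 groups of 5 or 10 values were examined for a value far from the others, and 3 were found; chance gives about 1 in 20 groups. Kcnab3 was at 0.46 on the array of WT3 against TG4, and between 0.081 and 0.27 on the other 9. The normalized log2 level of Kcnh3 was 6.02 in TG4, and 7.12 to 7.31 in the other 4 TG mice. That of Kcnk2 was 6.93 in TG4, and 7.85 to 8.15 in the others. All 3 values came from the arrays of the mouse labelled TG4.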

How the results depend on the processing

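The count of called members was 6 and ranged from 0 to 13 over the settings tried. The count over all genes moved too, from 11 (1 value per mouse after the exchange) to 5177 (WT mouse as replicate block). The member count was 1 (1 higher, 0 lower) with median centring, beside 1166 of all genes. It was 2 at an FDR limit of 0.05 (1 higher, 1 lower). With 1 value per mouse it was 0, as labelled or after the exchange of arrays, beside 29 and 11 of all genes. The log ratio of the scanner software gave 4 called members, 1 of them lower, beside 2125 of all genes. With dye orientation as a term 8 were called, 5 of them lower, beside 3477 of all genes. Leaving out 1 array or 1 mouse gave 1 to 7 called members, 1 to 3 higher and 0 to 4 lower. The count was 1 without WT3 or without WT4, where the calls over all genes fell from 2812 to 360 and 312. Over the 12 named genes and their alternatives on Agilent, 429 values in all, 309 kept direction and side of the limit, 72 lost the call, 9 gained it and 39 changed sign. Of the sign changes, 2 in each gene were forced by the exchange of arrays. The rest were in Kcne4 (16 in all) and Kcnv2 (3 in all).

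The exchange of arrays turns every sign by construction, with 1 value per mouse and with the replicate block, so these turns test nothing. For the called genes the values were then Kcnab3 -0.203, Kcnab1 0.208, Kcnj10 -0.210, Kcnh1 -0.197, Kcnip4 0.416 and Kcnv1 0.253. For the others they were Kcnh3 0.198, Kcnk2 0.243, Kcnn1 -0.114, Kcnq3 -0.186, Kcnv2 0.0154 and Kcne4 9.778e-05. Kcne4, at -9.778e-05, also turned with normexp (0.00137), scaling (0.000316) and robust regression (0.00761), and without 1 array or mouse ranged from -0.0123 to 0.015. Kcnv2 was at -0.0324 to 0.00403 there. On ABI, leaving out 1 mouse gave -0.19 to 0.134 for Kcnh3 and -0.0794 to 0.147 for Kcne4.

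The replicate block with the WT mouse gave 13 of 78 members called (6 higher, 7 lower), beside 5177 of 34496 genes (correlation within mice -0.252). With the TG mouse it gave 8, beside 4206 of all genes (-0.162). With dye orientation as a further term, an alternative chosen after seeing the data, the WT mouse block gave 9 (5 lower), beside 3747 of all genes. It gave 5, beside 1978 of all genes, after the exchange, where arrays sharing a WT mouse all deviated together. There Kcnab1 (limma FDR 0.113) and Kcnh1 (limma FDR 0.175) lost their calls. On ABI, where numbers mark a mouse within its group alone, the block left Kcnh3 at 0.0261, Kcne4 at 0.0204 and Kcnrg at -0.239. For Agilent a block by scan date was not run, since all of its arrays were scanned on 1 day. For ABI the study's methods report batches hybridized on different days, whose signal distributions differed. The ABI fits here held no term for that batch. Precision is limited by 10 arrays and, for 17 of 78 members, by signals that were not well above background in every channel.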
